A study of Mus musculus with 58 samples.

Results

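Monocyte-derived macrophages from the livers of mice with ligated common bile ducts were compared with those of sham-operated mice. The members are the libraries whose source name is monocyte-derived macrophage (MoMF) and whose titles read CBDL6w (4 libraries) or Sham6w (3 libraries), 7 of the 58 libraries of the series. CBDL6w stands for 6 weeks after ligation of the common bile duct, which the labels call advanced cholestatic liver injury, and Sham6w for the sham-operated controls at 6 weeks. All mice were of strain 129SV, and no transgene or drug is named for either group. The series also holds Kupffer cells (KC) and monocytes (Mo) from the same groups, a 2-week ligation group (CBDL2w, the onset of injury) and colitis groups that enter the results below only through the shared estimate of spread. The design text aimed at 4 replicates a group and states that replicates were pooled for some samples. The CBDL6w libraries carry the single replicate numbers 1 to 4, while the Sham6w libraries are labelled 1+2+5, 3 and 4+6, so both libraries with joined numbers are controls. Among libraries with single numbers, which leave 1 control, 17 genes passed (13 higher, 4 lower), 7 of them among the 74 described below. All values per library below are given in these orders.

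Bile that cannot leave the liver injures the parenchyma and is followed by inflammation and scarring around the portal tracts. Circulating monocytes enter the injured liver through the chemokine receptor Ccr2 and can become macrophages there, whereas Kupffer cells are the resident macrophages of the sinusoids and live beside sinusoidal endothelium. Macrophages that gather at scars in several chronic liver diseases are known for genes such as Trem2, Spp1, Gpnmb and Cd9.

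The libraries are 3' tag libraries, in which 1 read stands for the end of 1 messenger RNA, and the deposited unit is a normalized count, the read count divided by a size factor of the library. Totals were 183043 to 367969 reads in CBDL6w and 118687 to 294183 in Sham6w, with 10894 to 12148 and 8885 to 11957 genes detected. Sham6w replicate 1+2+5 was the shallowest library of the 7 and gave the lowest number of genes. Correlations between libraries across genes were 0.682 to 0.802 among CBDL6w and 0.511, 0.526 and 0.754 among Sham6w, where both lower values involve replicate 1+2+5. The chi-square per degree of freedom between libraries, which allows for counting error, was 4.38 to 7.05 among CBDL6w and 4.69 to 7.13 among Sham6w. Csf1r, the receptor for macrophage colony stimulating factor, had mean normalized counts of 242.7 in CBDL6w and 379.1 in Sham6w, and Itgam (CD11b) of 232.7 and 178.1. These markers of the label were detected, but were not set against Kupffer cells or monocytes, so they do not test the label. The Kupffer cell markers were present as well. Clec4f had a mean of 22.3 in CBDL6w and 78.4 in Sham6w, against 453 in Kupffer cells of Sham6w, so Kupffer cell transcripts were in the MoMF libraries at a fraction of their level in Kupffer cells. Ly6c2, which marks classical monocytes, had means of 10.9 and 8.03, against 173 in monocytes of Sham6w.

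Of 6079 genes tested, 74 (1.22%) differed between CBDL6w and Sham6w at a limma adjusted p under 0.05 (Benjamini-Hochberg, two-sided): 25 (0.411%) were higher and 49 (0.806%) lower after ligation. Among the risen genes were Spp1, Fn1 and Tgfbi, which encode matrix and adhesion proteins, the chemokine receptors Ccr2 and Ccr1, the phagocyte receptors Trem2, Sirpa and Fcgr2b, and the lectin gene Lgals3. Among the fallen genes were 15 major urinary protein genes, 3 plasma cell transcripts, 4 replication-dependent histones, 3 heat shock genes and the nuclear receptor Nr1h3. In all 74 genes the libraries of the groups did not overlap. Among all tested genes, 4.08% separated the groups this way with CBDL6w higher and 4.97% with CBDL6w lower. The median change over all genes was 0.02 on the log2 scale, and 908 genes had an unadjusted p under 0.05.

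The calls rest on the spread shared over all 19 MoMF libraries. Fitted on the 7 compared libraries alone, 11 genes passed, all lower after ligation. The count rose to 205 (149 higher, 56 lower) without Sham6w replicate 3 and to 120 (74 higher, 46 lower) without Sham6w replicate 4+6, and it was 49 (12 higher, 37 lower) without CBDL6w replicate 1. No called gene changed direction in any alternative, and 29 of the 74 passed in all 7 fits that left out 1 library. The labels do not say that replicates are separate animals, so the p-values measure the spread between these libraries. In bulk libraries such as these, fewer cells of a type and less RNA per cell cannot be told apart.

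**Figure D1:**
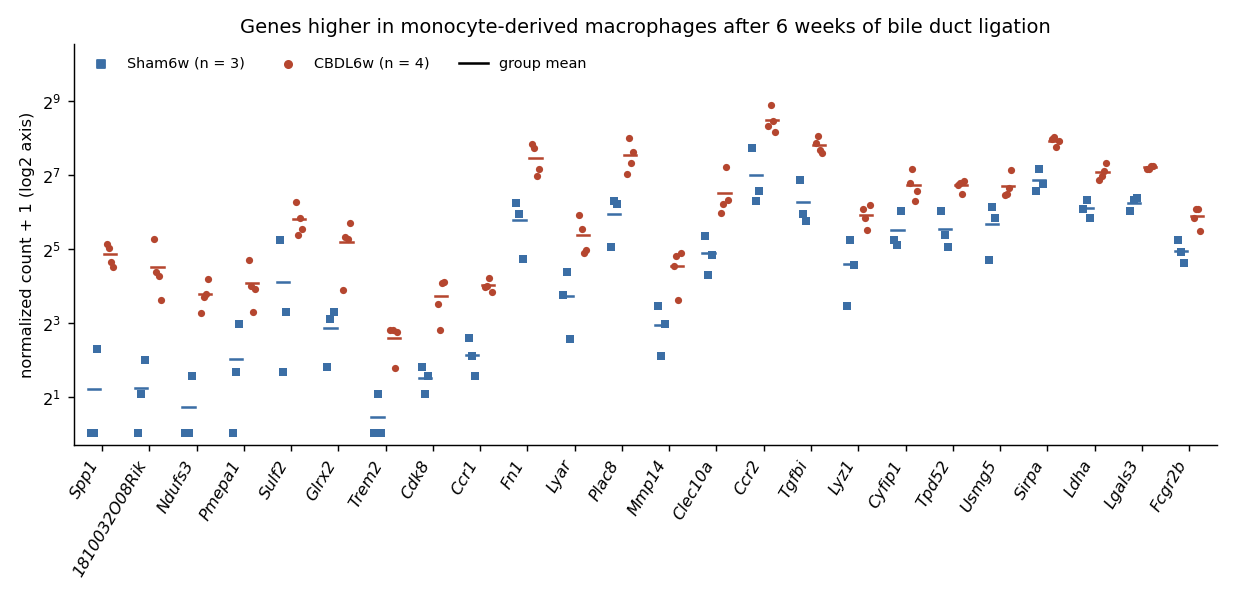
Of the 25 genes higher in CBDL6w, 24 are plotted, with normalized count + 1 per library on a log2 axis. Points are single libraries of CBDL6w (4) and Sham6w (3) and lines are group means. Spp1 shows the widest gap, and its CBDL6w libraries lie between 21.8 and 34.3 normalized counts while the Sham6w libraries lie between 0 and 3.93.

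Of the lipid- and scar-associated macrophage genes 3 of 19 tested rose (against 0.411% of all genes), namely Spp1, Trem2 and Lgals3, and none fell. Spp1, which encodes the secreted adhesion protein osteopontin, had 34.3, 31.7, 24.0 and 21.8 normalized counts in the CBDL6w libraries and 0, 0 and 3.93 in the Sham6w libraries (ENSMUSG00000029304, chr5:104435118-104441050). All 4 ligated libraries lay far above the controls, and Spp1 was detected in 1 control library only. The group means were 27.9 ± 6.01 (SD, n = 4) and 1.31 ± 2.27 (SD, n = 3), a log2 change of 4.06 ± 0.50 (SE; adjusted p = 2.46e-04), which was the largest rise in the comparison. Trem2, a lipid-sensing receptor of phagocytes (ENSMUSG00000023992, chr17:48346401-48354147), had 6.01, 6.03, 2.40 and 5.69 normalized counts in CBDL6w and 0, 1.09 and 0 in Sham6w. Trem2 rose by 2.18 ± 0.48 (adjusted p = 0.0204), although its level stayed within a few normalized counts in every library. Lgals3, the galactose-binding lectin galectin-3, had 143, 143, 150.1 and 152 in CBDL6w and 64.4, 79.3 and 82.5 in Sham6w, a rise of 0.96 ± 0.21 (adjusted p = 0.0217). The 4 ligated libraries lay within a narrow band above all controls. Gpnmb, a glycoprotein of the same macrophages, had 4.29, 6.03, 1.60 and 15.2 in CBDL6w and 0, 0 and 0.982 in Sham6w and did not pass (log2 change 2.32 ± 0.65, adjusted p = 0.0802). The tetraspanins Cd9 (0.86 ± 0.49, adjusted p = 0.424) and Cd63 (−0.06 ± 0.54, adjusted p = 0.977) did not pass either. The median of the list was 0.05, close to that of all genes.

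Spp1 is also made by bile duct epithelium, whose cells multiply after ligation. The bile duct keratins Krt7 and Krt8 were at 0 in all 7 libraries, and Epcam, which bile duct epithelium carries on its surface, had 3.43, 1.51, 3.19 and 4.74 normalized counts in CBDL6w and 0, 2.17 and 4.91 in Sham6w, with overlap. The bile duct list as a whole took 0.00912% to 0.0134% of reads in CBDL6w and 0% to 0.0034% in Sham6w, most of it from Spp1. Krt19, Cldn7 and Cftr, which also mark bile duct epithelium, have no values here. The part of bile duct cells in the rise of Spp1 was not tested. Spp1 passed in all 7 fits that left out 1 library. Trem2 lost its call without CBDL6w replicates 1, 2 or 4 or Sham6w replicate 1+2+5 (adjusted p from 0.0504 to 0.0573), and Lgals3 without CBDL6w replicates 1, 3 or 4 or Sham6w replicate 1+2+5 (adjusted p from 0.0503 to 0.0730). With edgeR and with DESeq2 on the recovered reads Trem2 did not pass, nor with a pseudocount of 5 or without the filter on low values. It passed with equal library totals. None of the 7 compared libraries reached a normalized count of 10, so Trem2 was not tested with the compared groups alone.

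Matrix genes moved in both directions. In the list of matrix remodelling genes 2 of 16 rose (Fn1 and Mmp14) and 1 fell (Sparc), with a median of 0.34. Among all genes 0.411% rose and 0.806% fell. Fn1, which encodes fibronectin (ENSMUSG00000026193, chr1:71585520-71653200), had 229, 211, 125 and 141 normalized counts in CBDL6w and 74.3, 60.8 and 25.5 in Sham6w. All ligated libraries exceeded the highest control, and the change was 1.79 ± 0.38 (adjusted p = 0.0183). Tgfbi, a matrix adhesion protein induced by transforming growth factor beta (ENSMUSG00000035493, chr13:56609523-56639562), had 233, 264, 204 and 194 in CBDL6w and 116, 60.8 and 53.0 in Sham6w, a rise of 1.61 ± 0.26 (adjusted p = 0.00241). Its group means, 224 ± 31.3 (SD, n = 4) and 76.8 ± 34.6 (SD, n = 3), lay far outside each other's spread. Mmp14, a membrane-bound metalloproteinase that activates other proteases and cuts collagen, had 22.3, 27.1, 11.2 and 28.4 in CBDL6w and 9.91, 3.26 and 6.87 in Sham6w (1.62 ± 0.40, adjusted p = 0.0412). Its lowest ligated library was close to its highest control. Tgfbi passed without any single library, whereas Fn1 lost its call without CBDL6w replicates 1 or 2 or Sham6w replicate 4+6 (adjusted p from 0.0504 to 0.0686), and Mmp14 without CBDL6w replicates 1, 2 or 4 or Sham6w replicates 3 or 4+6 (adjusted p from 0.0528 to 0.112).

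Sulf2, an extracellular enzyme that removes sulfate groups from heparan sulfate, had 76.4, 40.7, 56.7 and 45.5 in CBDL6w and 37.2, 2.17 and 8.84 in Sham6w (2.36 ± 0.50, adjusted p = 0.0183). Pmepa1, a membrane protein that restrains signalling by transforming growth factor beta, had 24.9, 15.1, 8.78 and 14.2 in CBDL6w and 0, 2.17 and 6.87 in Sham6w (2.43 ± 0.54, adjusted p = 0.0212). In both genes 1 control library stood far above the others, Sham6w replicate 1+2+5 for Sulf2 and 4+6 for Pmepa1. Sulf2 lost its call without CBDL6w replicate 1 or Sham6w replicate 3 (adjusted p from 0.05002 to 0.0573), and Pmepa1 without CBDL6w replicate 1 or Sham6w replicate 1+2+5 (adjusted p from 0.0702 to 0.108). Pmepa1 also did not pass with edgeR or DESeq2 on the recovered reads.

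The chemokine receptors Ccr2 and Ccr1, which guide monocytes into tissue, rose. Ccr2, the receptor for the chemokine Ccl2 (ENSMUSG00000049103, chr9:124101950-124113557), had 324, 477, 354 and 284 normalized counts in CBDL6w and 211, 77.1 and 93.3 in Sham6w. The group means were 359.5 ± 83.0 (SD, n = 4) and 127 ± 72.8 (SD, n = 3), and the change was 1.61 ± 0.27 (adjusted p = 0.00263). Ccr1, a receptor for Ccl3 and Ccl5 among others, had 14.6, 15.1, 17.6 and 13.3 in CBDL6w and 4.95, 3.26 and 1.96 in Sham6w, a rise of 1.93 ± 0.43 (adjusted p = 0.0236). Ccr1 was even across the ligated libraries and at most 4.95 in the controls. They were the 2 risen genes of 17 tested chemokine receptors and leukocyte integrins (against 0.411% of all genes), a list whose median was −0.18. Cx3cr1, another receptor of monocytes and macrophages, changed by 0.82 ± 0.33 (adjusted p = 0.246) and did not pass. For Cx3cr1 the groups overlapped because Sham6w replicate 1+2+5 had 336.8 normalized counts, above every ligated library. Ccr2 passed without any single library, and Ccr1 lost its call without CBDL6w replicates 1 or 3 or Sham6w replicate 4+6 (adjusted p from 0.0560 to 0.0651).

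Among chemokines themselves 0 of 14 rose and 1 fell. This was Ccl3, a ligand of Ccr1, with 26.6, 16.6, 12.8 and 27.5 in CBDL6w and 34.7, 60.8 and 126 in Sham6w (−1.65 ± 0.40, adjusted p = 0.0404). Its highest ligated library was close to its lowest control. Ccl5, made by T and natural killer cells as well as macrophages, had means of 17.7 and 121 and did not pass (−2.50 ± 0.68, adjusted p = 0.0683). Markers of T and natural killer cells took 0.0133% to 0.0319% of reads in CBDL6w and 0.0185% to 0.0701% in Sham6w. Ccl3 lost its call without CBDL6w replicates 1, 2 or 3 or Sham6w replicate 4+6 (adjusted p from 0.0524 to 0.120).

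Of the classical monocyte genes 3 of 22 tested rose (Ccr2, Plac8 and Fn1; against 0.411% of all genes) and 0 fell, with 20 positive and 2 negative changes and a median of 0.73 against 0.02 for all genes. Plac8, a small cysteine-rich protein of classical monocytes (ENSMUSG00000029322, chr5:100553725-100572245), had 131, 256, 161 and 195 normalized counts in CBDL6w and 32.2, 77.1 and 73.7 in Sham6w, a rise of 1.65 ± 0.29 (adjusted p = 0.00329). The lowest ligated library lay well above the highest control. The calcium-binding protein S100a4 (1.06 ± 0.31, adjusted p = 0.0965), Ms4a6c (0.81 ± 0.24, adjusted p = 0.0962) and the guanine deaminase Gda (1.32 ± 0.34, adjusted p = 0.0566) were positive without passing. Ly6c2 itself changed by 0.22 ± 0.61 (adjusted p = 0.903), and its value in CBDL6w replicate 2, 22.6, stood apart from the other 3 ligated libraries at 5.59 to 7.73. Plac8 passed without any single library.

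Lyz1, a lysozyme, had 67.0, 55.8, 44.7 and 72.0 in CBDL6w and 9.91, 36.9 and 22.6 in Sham6w (1.49 ± 0.31, adjusted p = 0.0128). Lyz1 and Lyz2 are close copies, and how the authors' counting divided shared reads is not known, so the split between them is uncertain. Lyz2 had means of 606 and 484. Clec10a, a galactose-type lectin of macrophages and dendritic cells, had 61.8, 73.9, 148 and 79.6 in CBDL6w and 39.6, 18.5 and 27.5 in Sham6w (1.62 ± 0.35, adjusted p = 0.0196). Dendritic cell markers, a list that holds Clec10a itself, took 0.0368% to 0.106% of reads in CBDL6w and 0.0301% to 0.0381% in Sham6w. That share includes the reads of Clec10a, so it does not stand apart from its rise. The part of dendritic cells in the result was not tested. Lyz1 lost its call without Sham6w replicate 1+2+5 (adjusted p = 0.0607), and Clec10a without CBDL6w replicate 3 or Sham6w replicate 3 (adjusted p from 0.0539 to 0.0684).

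Patrolling monocyte genes did not pass in either direction (0 of 21, median −0.18, 4 positive and 17 negative), and neither did the MHC class II genes (0 of 12, median 0.52, 11 positive and 1 negative). In the latter, H2-Ab1 had means of 947 and 587 (0.58 ± 0.28, adjusted p = 0.335).

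Sirpa, the inhibitory receptor that reads CD47 on other cells, had 251, 259, 215 and 239.7 normalized counts in CBDL6w and 94.1, 142 and 108 in Sham6w (1.08 ± 0.23, adjusted p = 0.0183). The 4 ligated libraries were within 215 to 259, and no control exceeded 142. Fcgr2b, the inhibitory receptor for immunoglobulin G, had 56.7, 66.3, 66.3 and 43.6 in CBDL6w and 37.2, 29.3 and 23.6 in Sham6w (0.94 ± 0.21, adjusted p = 0.0245), the 1 risen gene of 19 tested complement and Fc receptor genes. The 37 tested lysosomal genes had a median of 0.19 and together took 1.55% to 1.77% of reads in CBDL6w and 1.23% to 1.39% in Sham6w, without overlap. Ldha, the lactate dehydrogenase subunit that closes glycolysis, had 117, 125, 137 and 159 in CBDL6w and 66.9, 79.3 and 56.0 in Sham6w (0.99 ± 0.21, adjusted p = 0.0183), the 1 risen gene of 22 glycolytic genes (median 0.34). Cyfip1, a part of the complex that nucleates branched actin, rose by 1.24 ± 0.29 (adjusted p = 0.0319). Sirpa lost its call without Sham6w replicate 1+2+5 (adjusted p = 0.0634), Ldha without CBDL6w replicate 4 or Sham6w replicate 4+6 (adjusted p from 0.0563 to 0.0588), Fcgr2b without CBDL6w replicates 1, 2 or 3 or Sham6w replicate 4+6 (adjusted p from 0.0548 to 0.0726) and Cyfip1 without CBDL6w replicates 1, 2 or 4 or Sham6w replicates 1+2+5 or 3 (adjusted p from 0.0561 to 0.0957).

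The mitochondrial proteins Ndufs3 (complex I, 3.21 ± 0.75, adjusted p = 0.0319), Usmg5 (ATP synthase, 1.13 ± 0.28, adjusted p = 0.0467) and Glrx2 (a glutaredoxin, 2.31 ± 0.57, adjusted p = 0.0423) rose as well. In the oxidative phosphorylation list, which holds none of these 3, 0 of 51 tested genes passed and the median was 0.28. The kinase Cdk8 of the Mediator complex, Lyar and Tpd52 rose by 2.15 ± 0.52, 1.77 ± 0.40 and 1.23 ± 0.28 (adjusted p = 0.0382, 0.0257 and 0.0257), as did the uncharacterised gene 1810032O08Rik by 3.37 ± 0.64 (adjusted p = 0.00656). Of these, 1810032O08Rik passed without any single library. Ndufs3 lost its call without CBDL6w replicates 1, 2, 3 or 4 or Sham6w replicates 1+2+5 or 3 (adjusted p from 0.0560 to 0.0948), Usmg5 without CBDL6w replicates 1, 2, 3 or 4 or Sham6w replicate 1+2+5 (adjusted p from 0.0548 to 0.217), and Glrx2 without CBDL6w replicates 2, 3 or 4 or Sham6w replicate 1+2+5 (adjusted p from 0.0890 to 0.181). Cdk8 lost its call without CBDL6w replicates 1, 3 or 4 or Sham6w replicates 3 or 4+6 (adjusted p from 0.0535 to 0.107), Lyar without CBDL6w replicates 1 or 2 or Sham6w replicate 4+6 (adjusted p from 0.0658 to 0.0910), and Tpd52 without CBDL6w replicates 1, 2 or 4 or Sham6w replicate 4+6 (adjusted p from 0.0548 to 0.0769).

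**Figure D2:**
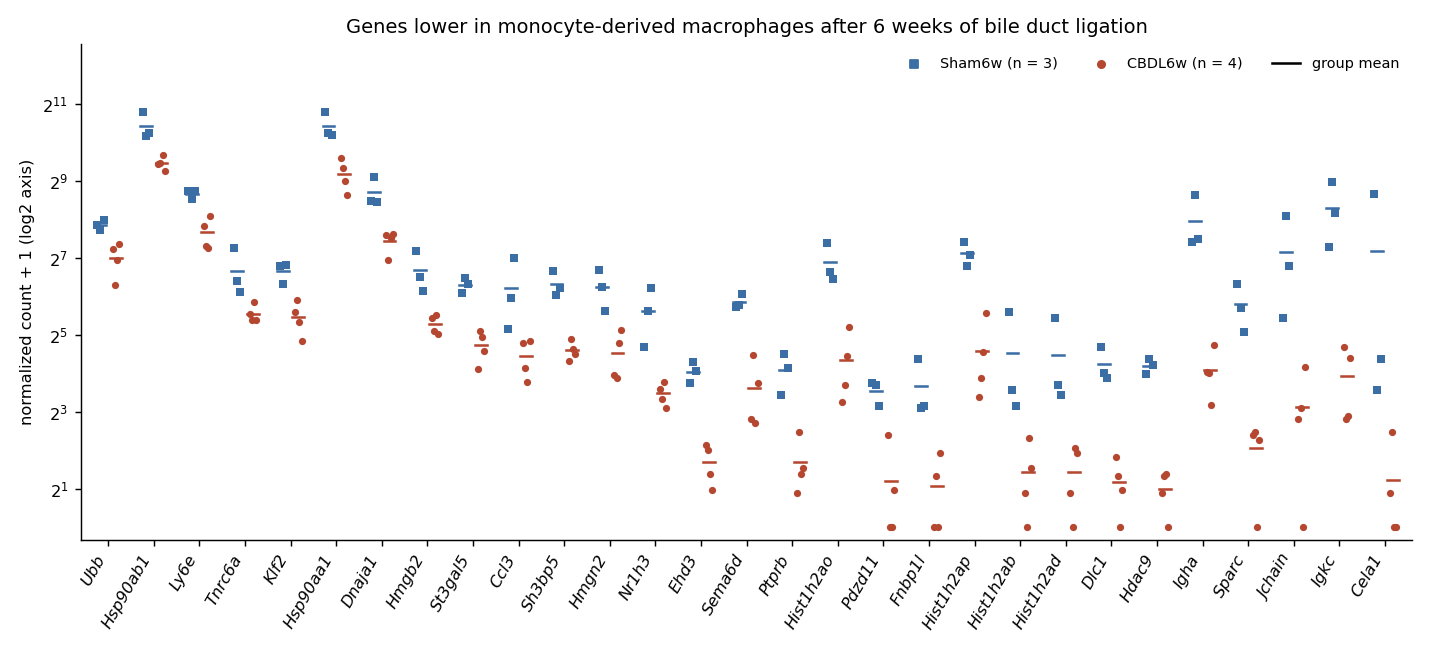
The 29 genes lower in CBDL6w other than major urinary protein and predicted genes, with normalized count + 1 per library on a log2 axis. Points are single libraries and lines are group means. Hsp90aa1 and Hsp90ab1 are the most abundant, and the immunoglobulin transcripts Igkc and Igha have every Sham6w library at 153.5 normalized counts or more and every CBDL6w library at 25.6 or less.

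Of the heat shock and protein folding genes 3 of 21 tested fell after ligation (against 0.806% of all genes) and 0 rose, with 20 negative changes, 1 positive and a median of −0.52. Hsp90aa1 and Hsp90ab1 encode the inducible and the constitutive cytosolic Hsp90 chaperones. Hsp90aa1 (ENSMUSG00000021270, chr12:110690605-110702728) had 775, 645, 508 and 398 normalized counts in CBDL6w and 1758, 1200 and 1171 in Sham6w, a fall of 1.26 ± 0.22 (adjusted p = 0.00358). Hsp90ab1 had 693, 703, 817 and 613 in CBDL6w and 1763, 1151 and 1204 in Sham6w (−0.94 ± 0.18, adjusted p = 0.00645). In both genes the highest value was in Sham6w replicate 1+2+5, and the other controls still lay above every ligated library. Dnaja1, a co-chaperone that hands substrates to Hsp70, had 191, 122, 180.4 and 194 in CBDL6w and 357, 542 and 349.6 in Sham6w (−1.26 ± 0.27, adjusted p = 0.0183). Ubb, a polyubiquitin gene, fell by 0.90 ± 0.23 (adjusted p = 0.0479). Dnajb1, another Hsp70 partner, had means of 28.5 and 81.0 and did not pass (−1.70 ± 0.48, adjusted p = 0.0812), and the Hsp70 gene Hspa1a changed by −0.45 ± 0.33 (adjusted p = 0.562). As a share of reads the list took 0.926% to 1.25% in CBDL6w and 1.57% to 2.11% in Sham6w, without overlap. Both Hsp90 genes passed without any single library, and Dnaja1 lost its call without CBDL6w replicate 2 or Sham6w replicate 3 (adjusted p from 0.0511 to 0.0543) and Ubb without CBDL6w replicates 1, 2 or 3 or Sham6w replicates 1+2+5 or 4+6 (adjusted p from 0.0526 to 0.0916).

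Heat shock factors bind elements made of inverted GAA units, and a pair of such units, a part of the element, was searched. The motif searched here was GAANNTTC or TTCNNGAA, each its own reverse complement, in the 250 bases before the start of each gene of RefSeq on GRCm38.p6. It was present in 12.8% of all 32851 promoters and in 9 of 27 promoters (33.3%) of the list, which belong to 21 of its 25 members. Of the 3 fallen members only Dnaja1 was searched, and Hsp90aa1 and Hsp90ab1 were not searched here. Dnaja1 has 3 annotated starts, and 1 of them has a match, 124 bases upstream. The promoter with the match is shown because Dnaja1 is a fallen member of the list and this start has a match, with the motif in capitals, at chr4:40722218-40722467 on the plus strand. A match is a description of the letters and does not show binding.
Dnaja1: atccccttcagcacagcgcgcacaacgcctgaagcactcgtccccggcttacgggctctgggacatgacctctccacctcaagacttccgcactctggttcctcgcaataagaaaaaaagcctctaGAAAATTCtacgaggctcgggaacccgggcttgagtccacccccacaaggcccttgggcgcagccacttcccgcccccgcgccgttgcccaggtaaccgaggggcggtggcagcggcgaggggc

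Klf2, a transcription factor that restrains inflammatory activation of monocytes and endothelium, had 47.2, 58.8, 39.1 and 27.5 normalized counts in CBDL6w and 109, 78.2 and 112 in Sham6w (−1.22 ± 0.28, adjusted p = 0.0257). It was the 1 of 25 immediate early genes that fell, and 0 rose (median −0.32). Nr1h3, the liver X receptor alpha that senses oxysterols and maintains Kupffer cell identity, had 11.2, 9.05, 12.8 and 7.58 in CBDL6w and 24.8, 47.8 and 72.7 in Sham6w (−2.05 ± 0.50, adjusted p = 0.0451). These were the 2 fallen genes of 28 tested transcription factors (against 0.806% of all genes), with none risen. Nr1h3 was also the 1 fallen gene of 19 tested Kupffer cell genes, of which 18 changes were negative and 1 positive, with a median of −1.28. Cd163, the haptoglobin-haemoglobin scavenger receptor, had 14.6, 51.3, 16.8 and 8.53 in CBDL6w and 22.3, 168 and 267 in Sham6w (−2.40 ± 0.71, adjusted p = 0.0985). Its control libraries ranged so widely that the groups overlapped. Clec4f had 10.3, 49.8, 16.8 and 12.3 in CBDL6w and 29.7, 114 and 91.3 in Sham6w (−1.84 ± 0.62, adjusted p = 0.156). The Kupffer cell list as a whole took 0.0926% to 0.336% of reads in CBDL6w and 0.152% to 0.469% in Sham6w, with overlap. CBDL6w replicate 2 was the highest ligated library and Sham6w replicate 1+2+5 the lowest control; the part of Kupffer cell transcripts in the change of Nr1h3 was not tested. Of 15 tested genes of the liver X receptor pathway and cholesterol efflux 1 passed, which was Nr1h3 itself, and the median was 0.03. Abca1 changed by 0.51 ± 0.50 (adjusted p = 0.685) and Mylip by 2.21 ± 0.57 (adjusted p = 0.0551). Nr1h3 lost its call without CBDL6w replicates 1, 2, 3 or 4 or Sham6w replicates 3 or 4+6 (adjusted p from 0.0604 to 0.108), and Klf2 without CBDL6w replicates 3 or 4 or Sham6w replicates 1+2+5 or 4+6 (adjusted p from 0.0614 to 0.0862).

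Of the proliferation genes 2 of 12 tested fell (against 0.806% of all genes) and 0 rose. Their changes were 11 negative and 1 positive, with a median of −1.03. Hmgb2, a chromatin protein of cycling cells, had 42.1, 33.2, 44.7 and 31.3 normalized counts in CBDL6w and 144, 90.2 and 69.7 in Sham6w (−1.35 ± 0.28, adjusted p = 0.0165). Hmgn2, a nucleosome-binding protein, had 14.6, 13.6, 26.4 and 34.1 in CBDL6w and 102, 75.0 and 48.1 in Sham6w (−1.75 ± 0.38, adjusted p = 0.0192). Top2a, the topoisomerase that untangles chromosomes before mitosis, did not pass (means 7.37 and 35.6, −2.07 ± 0.58, adjusted p = 0.0781). Of the replication-dependent histones of cluster 1, a list written after the values were seen, 4 of 13 tested fell (against 0.806% of all genes). The median was −2.66, and 9 members did not overlap, with CBDL6w lower (against 4.97% of all genes). Hist1h2ap (ENSMUSG00000094777, chr13:21833026-21833507) had 9.44, 13.6, 22.4 and 46.4 in CBDL6w and 168, 109.7 and 135 in Sham6w (−2.75 ± 0.38, adjusted p = 3.97e-04). Hist1h2ao had 8.58, 12.1, 20.8 and 36.0 in CBDL6w and 166, 97.8 and 86.4 in Sham6w (−2.66 ± 0.42, adjusted p = 0.00222). The histone genes of the cluster are near-identical copies whose reads the counting may have divided, so they are better read as 1 family, with 0.0209% to 0.0427% of reads in CBDL6w and 0.114% to 0.271% in Sham6w. Hist1h2ab and Hist1h2ad fell as well, with changes of −2.91 ± 0.70 and −2.96 ± 0.72 (adjusted p = 0.0377 and 0.0404). Without Sham6w replicate 1+2+5 no gene of the proliferation list passed: Hmgb2 and Hmgn2 both had an adjusted p of 0.0824. Hist1h2ab lost its call without CBDL6w replicates 1, 2 or 4 or Sham6w replicate 1+2+5 (adjusted p from 0.0588 to 0.201), and Hist1h2ad without CBDL6w replicates 1 or 2 or Sham6w replicate 1+2+5 (adjusted p from 0.0857 to 0.194). Hmgn2 also lost its call without CBDL6w replicates 1 and 2, whereas Hist1h2ao and Hist1h2ap passed without any single library.

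The steepest falls were in transcripts that macrophages are not known for. The major urinary proteins are pheromone carriers made by hepatocytes, and their list was written after the values were seen. Of the 16 tested genes of this family 15 fell (against 0.806% of all genes), with changes of −3.94 to −4.85 on the log2 scale. Mup9 (ENSMUSG00000078686, chr4:60418046-60421952) had 2.58, 21.1, 1.60 and 2.84 normalized counts in CBDL6w and 109, 206 and 65.8 in Sham6w (−4.44 ± 0.76, adjusted p = 0.00263). In CBDL6w replicate 2 it stood well above the other ligated libraries and still under the lowest control. Of the 15, 12 passed without any single library, and Mup15 lost its call without CBDL6w replicates 2, 3 or 4 (adjusted p from 0.0548 to 0.0639). Mup12, Mup15 and Mup17 fell under the filter on low values when any control library was left out. Mup16 was the tested member that did not pass (−3.59 ± 1.00, adjusted p = 0.0785). The genes are near-identical copies in 1 cluster on chromosome 4, reads may have been divided between them, and the 15 falls are not independent. Together they took 0.00272% to 0.0339% of reads in CBDL6w and 0.172% to 0.482% in Sham6w. In Kupffer cell libraries the same genes took 0.00467% to 0.0997% in CBDL6w and 0.511% to 1.39% in Sham6w, and in monocytes 0% to 0.0191% and 0.127% to 0.228%. Other hepatocyte markers took 0.0168% to 0.0415% in CBDL6w and 0.0379% to 0.051% in Sham6w, with overlap, and Alb, the albumin gene, had 3.43, 6.03, 2.40 and 1.90 normalized counts in CBDL6w and 2.48, 13.0 and 8.84 in Sham6w. Their part in the result was not tested.

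Of the 15 fallen genes of the family 10 have a promoter in the RefSeq table. The longest stretch that 7 of them share letter for letter is 99 bases, and these 7 are the only promoters of all genes that hold it. The promoters of the 3 of these 7 with the highest mean in Sham6w, Mup9, Mup2 and Mup19, are shown because the copies moved together. The shared stretch is in capitals, and its first base lies 235, 232 and 231 bases before the start. All are on the minus strand of GRCm38.p6, at chr4:60421953-60422202, chr4:60139857-60140106 and chr4:61782225-61782474.
Mup9: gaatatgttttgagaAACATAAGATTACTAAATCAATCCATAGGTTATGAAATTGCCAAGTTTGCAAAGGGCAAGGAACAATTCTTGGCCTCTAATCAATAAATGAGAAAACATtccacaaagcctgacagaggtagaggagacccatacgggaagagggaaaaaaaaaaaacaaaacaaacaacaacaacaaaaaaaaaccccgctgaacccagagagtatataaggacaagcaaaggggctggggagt
Mup2: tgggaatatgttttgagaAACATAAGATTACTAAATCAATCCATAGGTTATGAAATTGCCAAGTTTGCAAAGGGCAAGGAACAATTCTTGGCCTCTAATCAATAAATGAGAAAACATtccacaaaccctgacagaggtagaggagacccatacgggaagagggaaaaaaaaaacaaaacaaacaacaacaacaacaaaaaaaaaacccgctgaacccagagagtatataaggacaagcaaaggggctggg
Mup19: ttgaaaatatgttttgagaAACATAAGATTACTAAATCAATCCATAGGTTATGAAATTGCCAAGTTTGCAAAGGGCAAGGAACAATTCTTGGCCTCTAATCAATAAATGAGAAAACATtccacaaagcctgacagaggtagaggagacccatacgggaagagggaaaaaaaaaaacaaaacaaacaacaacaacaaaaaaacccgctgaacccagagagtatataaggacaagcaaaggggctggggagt

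All 3 tested plasma cell markers fell (against 0.806% of all genes). Igkc, the constant region of the kappa light chain, had 24.9, 6.03, 6.39 and 19.9 normalized counts in CBDL6w and 154, 503 and 285 in Sham6w (−4.44 ± 0.60, adjusted p = 3.93e-04). Igha, the constant region of immunoglobulin A, had 15.5, 15.1, 7.98 and 25.6 in CBDL6w and 168, 393 and 179 in Sham6w (−3.85 ± 0.62, adjusted p = 0.00241). Jchain, which joins immunoglobulin A into dimers, had 6.01, 7.54, 0 and 17.1 in CBDL6w and 42.1, 271 and 110.0 in Sham6w (−4.25 ± 0.83, adjusted p = 0.00731). The lowest control lay above the highest ligated library for each of the 3. Plasma cell markers took 0.00489% to 0.0228% of reads in CBDL6w and 0.128% to 0.411% in Sham6w, and B cell markers 0.00747% to 0.0117% and 0.0126% to 0.069%. In Kupffer cells of the same groups the plasma cell share was 0.000874% to 0.00306% in CBDL6w and 0% to 0.00433% in Sham6w, and in monocytes 0.00377% to 0.0251% and 0.0421% to 0.107%. All 3 genes also fell in monocytes, in the fit over all libraries: Igkc by 2.64 ± 0.76 (adjusted p = 0.0187), Igha by −2.88 ± 0.80 (adjusted p = 0.0133) and Jchain by −3.21 ± 0.87 (adjusted p = 0.0115). In MoMF all 3 passed without any single library.

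Ptprb, the vascular endothelial phosphatase, had 0.858, 4.52, 1.60 and 1.90 normalized counts in CBDL6w and 9.91, 21.7 and 16.7 in Sham6w (−2.47 ± 0.48, adjusted p = 0.00731). It was the 1 call among 16 tested endothelial markers (0.806% of all genes fell), with 15 negative changes and a median of −1.52. Of these markers 8 did not overlap, with CBDL6w lower (against 4.97% of all genes). Sparc, a matrix-binding glycoprotein of endothelium and mesenchyme (ENSMUSG00000018593, chr11:55394500-55423183), had 4.29, 4.52, 0 and 3.79 in CBDL6w and 79.3, 51.1 and 32.4 in Sham6w (−3.91 ± 0.53, adjusted p = 3.93e-04). Ehd3, a membrane trafficking protein abundant in sinusoidal endothelium, had 3.43, 3.02, 1.60 and 0.948 in CBDL6w and 12.4, 18.5 and 15.7 in Sham6w (−2.41 ± 0.53, adjusted p = 0.0212). Endothelial markers took 0.0201% to 0.0279% of reads in CBDL6w and 0.0413% to 0.0781% in Sham6w, and stellate cell and fibroblast markers 0.00391% to 0.00819% and 0.00927% to 0.0235%, with Col1a1, Lum, Lrat and Des at 0 in all 7 libraries. Erythroid and platelet markers took 0.00358% to 0.0137% in CBDL6w and 0.0197% to 0.0521% in Sham6w. Their part in the calls of this and the preceding paragraphs was not tested. Sparc and Ptprb passed without any single library, and Ehd3 lost its call without CBDL6w replicates 3 or 4 (adjusted p from 0.0513 to 0.0639).

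**Figure D3:**
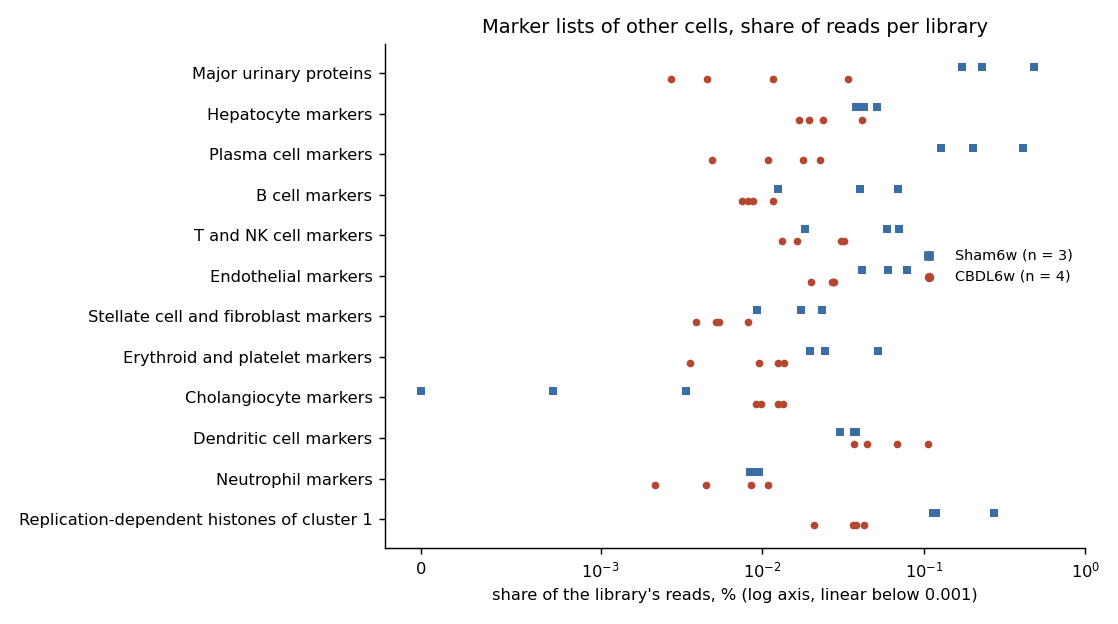
Share of reads from 12 lists of marker genes per library, in percent on a log axis that is linear below 0.001%. Points are single libraries of CBDL6w and Sham6w. The major urinary proteins (0.00272% to 0.0339% against 0.172% to 0.482%) and the plasma cell markers (0.00489% to 0.0228% against 0.128% to 0.411%) are farthest apart, and the hepatocyte markers overlap.

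Further falls were in enzymes and signalling genes with no list of their own. St3gal5, the synthase of the ganglioside GM3, had 16.3, 33.2, 29.5 and 22.7 normalized counts in CBDL6w and 66.9, 88.0 and 78.6 in Sham6w (−1.61 ± 0.27, adjusted p = 0.00263). Sh3bp5, a mitochondrial docking protein for the kinase JNK, had 18.9, 28.7, 24.0 and 21.8 in CBDL6w and 99.1, 64.1 and 72.7 in Sham6w (−1.70 ± 0.29, adjusted p = 0.00263). Both were even within each group and passed without any single library. Dlc1, a GTPase-activating protein, had 2.58, 1.51, 0 and 0.948 in CBDL6w and 24.8, 15.2 and 13.8 in Sham6w (−3.17 ± 0.69, adjusted p = 0.0204), and lost its call without CBDL6w replicate 3 or Sham6w replicate 1+2+5 (adjusted p from 0.0599 to 0.0824). The deacetylase Hdac9, the semaphorin Sema6d, Fnbp1l and Pdzd11 fell, with changes of −3.29 ± 0.76, −2.42 ± 0.52, −2.73 ± 0.61 and −2.69 ± 0.63 (adjusted p = 0.0272, 0.0196, 0.0245 and 0.0314). Ly6e, a membrane-anchored protein induced by interferon, and Tnrc6a, a scaffold of microRNA silencing, fell too, with changes of −1.04 ± 0.26 and −1.04 ± 0.26 (adjusted p = 0.0467 and 0.0481). Cela1, an elastase best known from the pancreas, had 0.858, 4.52, 0 and 0 in CBDL6w and 401, 10.9 and 19.6 in Sham6w (−4.69 ± 1.08, adjusted p = 0.0269). Sham6w replicate 1+2+5 held by far the highest value, and the other controls also lay above every ligated library. Without that library the log2 change was −3.13, and Cela1 lost its call without CBDL6w replicates 1, 3 or 4 or Sham6w replicate 1+2+5 (adjusted p from 0.0573 to 0.201). The other 5 fallen genes, Gm5844, Gm12346, Gm6368, Gm11336 and Gm28439, are pseudogenes by their annotation. Gm12346 had 157.9, 119.1, 99.8 and 72.0 in CBDL6w and 371.5, 222.7 and 218 in Sham6w, the same order of libraries as Hsp90aa1. Gm11336 (chr13:23746166-23746499) lies near Hist1h2ab (chr13:23751126-23751598). How the counting divided reads between pseudogenes and similar genes is not known, so these falls may not be independent of others. Hdac9 lost its call without CBDL6w replicates 1 or 4 (adjusted p from 0.0573 to 0.0824), Sema6d without CBDL6w replicates 1 or 3 or Sham6w replicate 4+6 (adjusted p from 0.0505 to 0.0614), Fnbp1l without CBDL6w replicates 1 or 3 (adjusted p from 0.0641 to 0.0648), and Pdzd11 without CBDL6w replicates 2, 3 or 4 (adjusted p from 0.0587 to 0.0796). Hdac9 also fell under the filter on low values when any control library was left out, so it was tested only through the controls, where it is high. Fnbp1l did so without Sham6w replicate 1+2+5, and Pdzd11 without Sham6w replicate 1+2+5 or 3. Ly6e lost its call without CBDL6w replicates 1, 2 or 3 or Sham6w replicates 1+2+5 or 4+6 (adjusted p from 0.0573 to 0.120), and Tnrc6a without CBDL6w replicates 1, 2 or 4 or Sham6w replicate 1+2+5 (adjusted p from 0.0858 to 0.223).

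**Figure D4:**
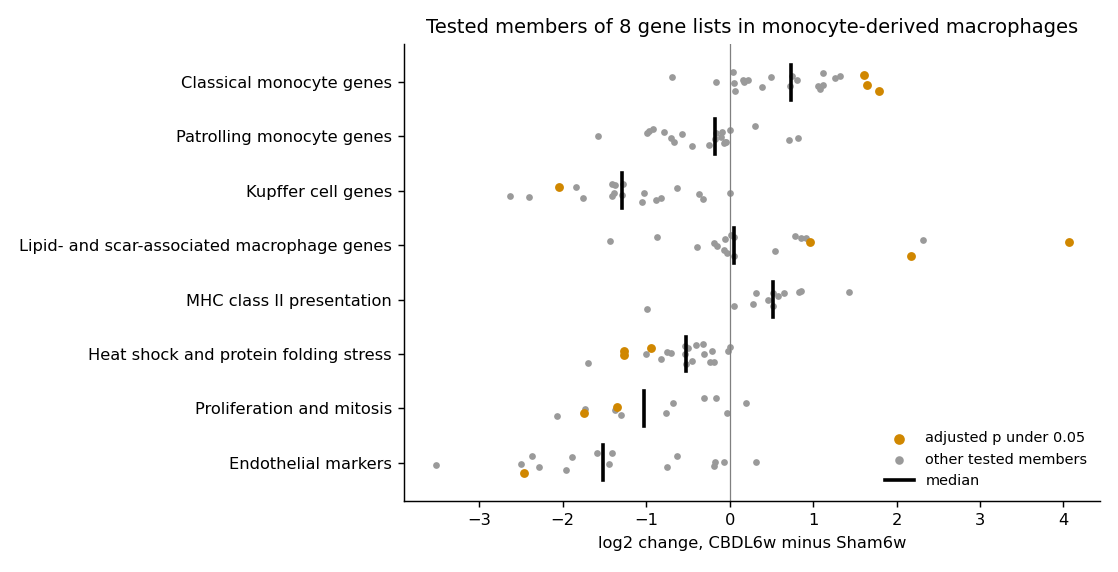
Log2 change from Sham6w to CBDL6w of every tested member of 8 gene lists, on log2(normalized count + 1). Orange points passed at a limma adjusted p under 0.05 and lines mark medians. Classical monocyte genes lie mostly above 0 (median 0.73), and Kupffer cell, proliferation and heat shock genes mostly below (medians −1.28, −1.03 and −0.52).

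Several programs of activated macrophages gave no call at 6 weeks. Of 23 type I interferon response genes and 24 genes of inflammatory NF-kB signalling none passed (medians −0.15 and 0.11). None of 78 ribosomal protein genes passed either (median 0.30), nor of 14 genes of the mitochondrial genome (median −0.39). The growth factor list had Tgfbi as its 1 call of 8. Genes common to tissue macrophages had Sirpa as their 1 call of 19 and a median of −0.01.

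Whether the advanced stage differed from the onset was asked by comparing CBDL6w with CBDL2w, the 2-week ligation group (4 libraries). The series has no sham group at 2 weeks, so this comparison is not matched for time since surgery. Of the 6079 genes, 5 passed (0.0823%), and all were lower at 6 weeks: Cxcl2, Apoe, Fn1, Pf4 and Ier3; 391 had an unadjusted p under 0.05. Cxcl2, a neutrophil-attracting chemokine, had a mean of 575 at 2 weeks and 119 at 6 weeks (−2.24 ± 0.24, adjusted p = 2.50e-05), and 89.9 in Sham6w. Apoe, the lipoprotein ligand that macrophages secrete, had 969.6 and 413 (−1.23 ± 0.20, adjusted p = 0.00758). Fn1 had 652, 579, 804 and 580.3 normalized counts in the 4 libraries of CBDL2w, all above the highest CBDL6w library at 229 (−1.92 ± 0.35, adjusted p = 0.0362). Pf4, a chemokine of platelets and macrophages, had 46.3 and 10.5 (−2.15 ± 0.41, adjusted p = 0.0362), and the stress response gene Ier3 had 99.2 and 39.2 (−1.35 ± 0.27, adjusted p = 0.0477). Leaving out 1 library gave 1 to 10 calls: without CBDL2w replicate 1 or 3 there was 1, without CBDL6w replicate 3 or 4 there were 3, without CBDL2w replicate 2 or 4 there were 2, and without CBDL6w replicate 2 there were 10.

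Set beside each other, Spp1 had means of 1.31, 137 and 27.9 in Sham6w, CBDL2w and CBDL6w, Trem2 0.362, 20.7 and 5.03, and Fn1 53.6, 654 and 177. The comparisons of these genes share libraries, and the CBDL2w values stand beside controls taken at 6 weeks. Spp1 and Trem2 did not pass between 2 and 6 weeks (−2.19 ± 0.46, adjusted p = 0.0769, and −1.84 ± 0.44, adjusted p = 0.132). Ccr2 had 127, 344 and 359.5, and Hsp90aa1 1377, 564 and 582.

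The same ligation was measured in Kupffer cells and in monocytes, and 1 fit over all 58 libraries (7555 genes) gives the change in each. Of the 25 genes that rose in MoMF, 7 also rose in Kupffer cells and 5 in monocytes, and none fell in either. Of the 49 that fell in MoMF, 21 also fell in Kupffer cells and 32 in monocytes, while 1 rose in Kupffer cells (Hmgb2). In that fit 2.7% of all genes passed in Kupffer cells and 8.7% in monocytes, counting both directions. Most of the 21 were major urinary protein genes, whose falls are not independent. The others were Klf2, Dnaja1, St3gal5, Sh3bp5, Ehd3 and Dlc1. The 32 also hold major urinary protein genes, with Igkc, Igha, Jchain, Sparc and Ptprb among the rest. Trem2 changed by 2.89 ± 0.56 in Kupffer cells (adjusted p = 8.13e-04) and 1.15 ± 0.61 in monocytes (adjusted p = 0.271). Fn1 rose in Kupffer cells by 3.66 ± 0.46 (adjusted p = 2.46e-07) and Ccr2 by 2.09 ± 0.23 (adjusted p = 1.57e-08). Tgfbi rose in monocytes by 1.19 ± 0.25 (adjusted p = 6.93e-04) and changed by 0.47 ± 0.23 in Kupffer cells (adjusted p = 0.352). Spp1 changed by 1.02 ± 0.59 in Kupffer cells and 1.79 ± 0.63 in monocytes (adjusted p = 0.462 and 0.0660). The test of the difference from the MoMF change did not pass for Spp1 against Kupffer cells (3.05 ± 0.86, adjusted p = 0.0968) or monocytes (2.27 ± 0.90, adjusted p = 0.241). Hsp90aa1 fell in monocytes by 1.28 ± 0.23 (adjusted p = 9.20e-05) and changed by −0.21 ± 0.21 in Kupffer cells (adjusted p = 0.755), and the difference from Kupffer cells did not pass (−1.05 ± 0.32, adjusted p = 0.110).

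**Figure D5:**
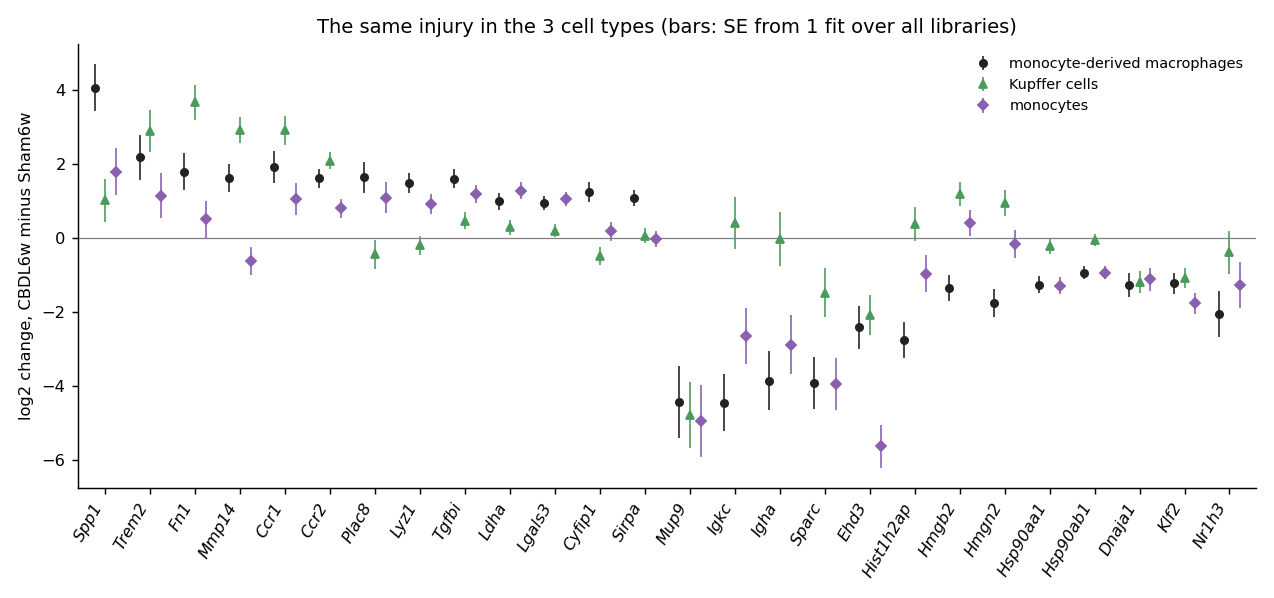
Log2 change from Sham6w to CBDL6w with its SE for 26 genes in MoMF, Kupffer cells and monocytes, from 1 fit over all 58 libraries. Trem2 is above 0 in all 3 cell types, and Igkc falls in MoMF (−4.44) and monocytes (−2.64) and not in Kupffer cells (0.40).

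The change after ligation differed between MoMF and Kupffer cells for 30 of 7555 genes (0.397%), 12 with the more positive change in MoMF and 18 with the more negative. Cx3cr1, the fractalkine receptor, had means of 30.8 in Sham6w and 314 in CBDL6w in Kupffer cells and of 169 and 239.7 in MoMF, a difference of −2.78 ± 0.45 (adjusted p = 9.22e-04). Cd63, a tetraspanin of late endosomes, went from 17.3 to 194 in Kupffer cells and from 32.5 to 33.6 in MoMF (−3.52 ± 0.74, adjusted p = 0.0127). Both genes rose in Kupffer cells and did not pass in MoMF. For Fth1, the ferritin heavy chain that stores iron, the difference had the other sign (2.00 ± 0.41, adjusted p = 0.0110). Its means went from 671 to 1301 in MoMF and from 1641 to 1089 in Kupffer cells. The MoMF rise did not pass in the fit of MoMF alone (limma adjusted p = 0.0802) and passed in the fit over all libraries (0.00808). The Kupffer cell fall did not pass in the latter (0.171). The Sham6w libraries of MoMF had 188.2, 783.2 and 1042. Of the genes that rose in MoMF, Lyz1 differed from Kupffer cells by 1.69 ± 0.37 (adjusted p = 0.0162) and Cyfip1 by 1.73 ± 0.35 (adjusted p = 0.0110). In Kupffer cells themselves neither passed, with changes of −0.20 ± 0.25 for Lyz1 (adjusted p = 0.811) and −0.48 ± 0.24 for Cyfip1 (adjusted p = 0.354). Of the genes that fell in MoMF, Hmgb2, Hmgn2, Hist1h2ao, Hist1h2ap, Igkc and Cela1 differed, and none of them fell in Kupffer cells. Hmgb2 rose there, with means of 18.6 in Sham6w and 41.4 in CBDL6w (1.19 ± 0.32, adjusted p = 0.0292; difference −2.54 ± 0.48, adjusted p = 0.00502). The other 5 had changes of 0.37 to 0.96 in Kupffer cells that did not pass. The number of differing genes was 12 without Sham6w replicate 1+2+5, 153 without replicate 3 and 151 without replicate 4+6, and 15 with edgeR.

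Against monocytes the change differed for 49 of 7555 genes (0.649%), 41 more positive in MoMF and 8 more negative, with a median difference over all genes of 0.16 that was 0.04 with edgeR. Mmp14 was among them: it rose in MoMF and had means of 25.6 in Sham6w and 16.5 in CBDL6w in monocytes (2.25 ± 0.53, adjusted p = 0.0289). Ndufs3 differed as well (3.97 ± 0.91, adjusted p = 0.0264). The remaining differences were mostly falls in monocytes. Igfbp7, a secreted protein abundant in endothelium, went from 404 to 16.4 in monocytes and from 41.7 to 9.72 in MoMF (2.80 ± 0.69, adjusted p = 0.0367). Mrc1, the mannose receptor of macrophages and sinusoidal endothelium, went from 157 to 20.6 in monocytes (2.56 ± 0.61, adjusted p = 0.0292). Selenop, a plasma selenium carrier, went from 513 to 134 (1.45 ± 0.35, adjusted p = 0.0289), and Ehd3 from 122 to 1.91 (3.21 ± 0.82, adjusted p = 0.0431). Endothelial markers took 0.291% to 0.518% of reads in Sham6w monocytes and 0.0126% to 0.0377% in CBDL6w monocytes, against 0.0413% to 0.0781% and 0.0201% to 0.0279% in MoMF, and their part in these differences was not tested. With edgeR 2 genes differed from monocytes, and without Sham6w replicate 1+2+5 10 did, against 91 without replicate 3 and 91 without replicate 4+6.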

How the data were processed

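A 3' tag kit with unique molecular identifiers gave the 58 libraries, per the labels' protocols. The submitters' processing notes list the aligner STAR 2.7.5b, the quantifier RSEM 1.3.1, the trimmer Trimmomatic (0.39, 0.39-1), UMI-tools 1.0.1, and DESeq2 without a version, on GRCm38.p6, and do not state their order. The sources used here do not give the gating of cells. The signal that the authors deposited is a normalized count, a read count over the library's size factor. Dividing it out gave whole reads (within 0.01) for 100% of values. Of 25307 gene identifiers, 25272 were found in GENCODE M21.

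A gene was tested when 3 or more libraries reached a normalized count of 10. The test was limma 3.58.1 (R 4.3.3, options trend and robust) on the log2 of the value + 1, a scale that understates changes of low genes. Changes in MoMF came from 1 model of its 19 libraries with 14 residual degrees of freedom. Differences between cell types were interaction contrasts in 1 model of all 58. A library with joined replicate numbers counted as 1. Passing means an adjusted p (Benjamini-Hochberg) under 0.05, two-sided. The number after ± is an SE for a log2 change and an SD for a level. Gene lists are described by counts and medians, with no test, and shares of reads cover counting error only in single libraries.

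Members and lists were chosen with earlier results of these data known. The rule for named genes took the 12 largest rises and 12 largest falls that passed without overlap at a mean of 50 or more (no predicted genes, pseudogenes or immunoglobulin segments), up to 4 passing genes per list, fixed markers, and the strongest genes of the other comparisons. The other passing genes were named after their values were seen. Some genes are not reported here. The model was tested on simulated data. The alternatives were a pseudocount of 5, no filter, equal library totals, count tests on the recovered reads (edgeR 4.0.16, DESeq2 1.42.0), the compared groups alone, a replicate block, libraries with single numbers, and each library left out.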

Additional observations from a re-analysis of the deposited data

Results flagged for a closer look

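Of 128 genes examined, 13 had 1 CBDL6w library whose gap to the nearest of the others exceeded Dixon's 95% critical value for 4 samples, 0.829. Chance flags about 1 in 20 groups. Replicate 2 was the high library for Clec4f (49.8 normalized counts, the others 10.3 to 16.8), Ly6c2 (22.6, the others 5.59 to 7.73), Mup9 (21.1, the others 1.60 to 2.84), Mup1 (6.03, the others 1.90 to 2.58) and Mup22 (3.02, the others 0). It was the low library for Cd74, the invariant chain of MHC class II (389, the others 643.5 to 673), and for the peroxidase Gpx1 (219, the others 345 to 358). Replicate 1 was the high library for Mup11 and Mup15 (2.58 in each, the others 0) and for Mup12 (0.858, the others 0). Replicate 3 was low for Trem2 (2.40, the others 5.69 to 6.03) and Sparc (0, the others 3.79 to 4.52). Replicate 4 was high for the respiratory chain subunit Cox7c (286, the others 212 to 217).

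The change after ligation differed from that in Kupffer cells, by the interaction in limma with Benjamini-Hochberg adjustment, for 11 named genes. The difference on the log2 scale was −2.71 for Hmgn2 (adjusted p = 0.00502), −2.54 for Hmgb2 (0.00502), −3.23 for Hist1h2ao (0.0317), −3.13 for Hist1h2ap (0.0153), −4.84 for Igkc (0.0153) and −5.06 for Cela1 (0.0386), all of which fell in MoMF. It was −2.78 for Cx3cr1 (9.22e-04) and −3.52 for Cd63 (0.0127), which rose in Kupffer cells. It was 2.00 for Fth1 (0.011), 1.73 for Cyfip1 (0.011) and 1.69 for Lyz1 (0.0162).

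Against monocytes 9 named genes differed. The difference was 3.97 for Ndufs3 (adjusted p = 0.0264), 3.21 for Ehd3 (0.0431), 2.80 for Igfbp7 (0.0367), 2.56 for Mrc1 (0.0292), 2.25 for Mmp14 (0.0289) and 1.45 for Selenop (0.0289). It was −1.09 for the Fc receptor Fcgr3 (0.0491), −1.04 for the lysosome positioning factor Kxd1 (0.0427) and −0.78 for the ribosomal protein gene Rps20 (0.0377).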

How the results depend on the processing

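All 74 genes called between CBDL6w and Sham6w kept their direction wherever an alternative gave a value, and 3 (Igha, Sparc and Igkc) passed in every alternative. The count of 74 was 137 with DESeq2, 11 with the compared groups only (fewer libraries behind the spread and 4659 genes tested), 17 with single-number libraries and 49 to 205 leaving out 1 library (120 without Sham6w replicate 4+6). It was 100 (71 shared) with a pseudocount of 5, 82 (59 shared) without a filter, 76 (72 shared) with equal totals and 88 (66 shared) with edgeR. The called genes that did not pass with edgeR were Pmepa1, Trem2, Mmp14, Cyfip1, Usmg5, Ubb, Ly6e and Pdzd11. With DESeq2 they were Pmepa1, Trem2 and Cdk8. Trem2, Cdk8 and Mmp14 were those that did not pass with a pseudocount of 5, and they did not pass without a filter either. The count of 5 between CBDL6w and CBDL2w was 11 with a pseudocount of 5, 3 without a filter, 2 with equal totals, 31 with DESeq2, 12 with the compared groups only and 1 to 10 leaving out 1 library. The 30 differences from Kupffer cells were 15 with edgeR and 12 to 153 leaving out 1 library (20 without CBDL6w replicate 4, 151 without Sham6w replicate 4+6). The 49 differences from monocytes were 131 with a pseudocount of 5, 112 without a filter, 2 with edgeR and 10 to 91 leaving out 1 library (35 without CBDL6w replicate 2). Where no construction is named, the cause was not tested.

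Deviations from the group means had correlations of −0.085 to 0.118 between libraries with the same number. In libraries this shallow such low correlations do not settle whether the numbers pair them. The main comparisons treated the libraries as unpaired. With the replicate number as a block, 18 genes passed between CBDL6w and Sham6w, 12 of them among the 74. Against CBDL2w the block gave 6 genes. The fits over all 58 libraries used another method, a shared correlation of libraries with the same injury and replicate label, estimated at 0.0462. It gave 31 differences from Kupffer cells and 57 from monocytes. Depth limits genes of few reads such as Trem2. List counts under each alternative were added after seeing the data.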
